A study of Mus musculus with 21 samples.

Results

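The 38 genes described here belong to the cell's responses to amino acid shortage and to misfolded protein. They are 9 regulators of the ATF4 response, 8 enzymes of amino acid and folate metabolism, 4 amino acid transporters, 9 genes of protein folding in the endoplasmic reticulum (ER) and 8 heat shock genes. They were chosen by name from these pathways, with earlier results of these data known. All 38 are among the 23412 gene symbols of the count tables. All 38 passed the filter on low counts, which kept 14963 genes for testing.

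Poly-A RNA was sequenced from mouse embryonic stem cells (mESCs, the male line v6.5) in 7 conditions of 3 libraries each, 21 libraries in all. Cells were harvested 48 hours after transfection with 50 nM of an siRNA. The study asks how PDS5A and PDS5B, accessory proteins of the cohesin ring that shapes chromosomes, and STAG1 and STAG2, alternative subunits of that ring, affect gene expression. WT cells received siGLO, a control oligo, or siPds5b against *Pds5b*. *Pds5b*-/- cells received siGLO. *Pds5a*-/- cells received siGLO, siPds5b, siStag1 or siStag2. Each knockout line is a single CRISPR clone, so the loss of the gene and other features of that clone cannot be told apart. Library totals ran from 17311090 to 23989198 counts, with a median of 19628146.

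When amino acids run short, the kinase GCN2 phosphorylates the translation factor eIF2, general protein synthesis slows, and the transcription factor ATF4 is made in larger amounts from its mRNA. ATF4 then turns on genes for making, importing and charging amino acids, and the kinase PERK feeds the same route when proteins misfold in the ER. Separate factors serve the other branches: XBP1 and ATF6 turn on ER chaperones, and HSF1 turns on the chaperones of the cytosol. Because ATF4 is controlled mainly through translation, the level of its mRNA is not a measure of the protein, which these data do not hold.

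Levels are given as normalized counts, the counts scaled to a common library size, in the order of replicates 1, 2 and 3 of each condition. Differences are log2 fold changes (log2FC) ± their standard error, from 1 model of all 21 libraries with 3 per condition. A gene is called a differentially expressed gene (DEG) at an adjusted p under 0.01, by the edgeR quasi-likelihood F test with Benjamini-Hochberg adjustment over the 14963 genes. These p-values measure the spread between these libraries, part of which may be technical. In bulk RNA, fewer cells of a type and less RNA per cell cannot be told apart.

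The targeted genes show what was perturbed. *Pds5b* had 2355, 2019 and 2285 normalized counts in WT siGLO, 686.7, 839.4 and 802.4 in WT siPds5b, 2614, 2074 and 2412 in *Pds5a*-/- siGLO, 1073, 900.7 and 735.5 in *Pds5a*-/- siPds5b and 277.6, 312.1 and 237.8 in *Pds5b*-/- siGLO. It was low in every library that received siPds5b or carries the *Pds5b* knockout, with no overlap with the siGLO libraries of WT or *Pds5a*-/- cells. *Pds5b* fell by siPds5b with a log2FC of −1.52 ± 0.11 in WT cells and −1.39 ± 0.11 in *Pds5a*-/- cells, and the *Pds5b*-/- line differed from WT with log2FC −3.01 ± 0.12. *Pds5b* was 3.10 ± 0.12 in *Pds5a*-/- siGLO against *Pds5b*-/- siGLO and −1.30 ± 0.11 in *Pds5a*-/- siPds5b against WT siGLO. *Stag1* had 617.2, 600.1 and 506.3 normalized counts in *Pds5a*-/- siStag1 against 2515, 2293 and 2475 in *Pds5a*-/- siGLO, a log2FC of −2.08 ± 0.09. *Stag2* had 851.1, 953.9 and 820.6 in *Pds5a*-/- siStag2 against 3561, 2930 and 3275 in *Pds5a*-/- siGLO, a log2FC of −1.90 ± 0.10. Both knockdowns were thus visible in all 3 libraries. *Pds5a* transcript had 5256, 4720 and 5200 in WT siGLO and 4786, 3788 and 4239 in *Pds5a*-/- siGLO, groups that overlap, with a log2FC of −0.24 ± 0.09 (adjusted p = 0.0415). Without *Pds5a*-/- siGLO replicate 1 this log2FC was −0.34 and passed the threshold. Transcript level is not a full check of a knockout, since an edited gene can still be transcribed, and these data hold no protein levels. *Pds5a* was lower in *Pds5a*-/- siGLO than in *Pds5b*-/- siGLO, with a log2FC of −0.42 ± 0.09 (−0.36 without *Pds5a*-/- siGLO replicate 2, no longer called), and lower in *Pds5a*-/- siPds5b than in WT siGLO, with a log2FC of −0.41 ± 0.09.

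The mESC label was checked against 8 pluripotency genes, all of which were measured in every condition, with *Tdgf1* the most abundant. Their summed normalized counts were 118747, 113675 and 110011 in WT siGLO, 94679, 86613 and 81811 in *Pds5a*-/- siGLO, 88602, 90927 and 95378 in *Pds5b*-/- siGLO, 77695, 70383 and 69437 in *Pds5a*-/- siPds5b and 67282, 75565 and 73451 in *Pds5a*-/- siStag2. Of the 8, 5 fell in *Pds5a*-/- siGLO against WT siGLO, 4 fell and 1 rose in *Pds5b*-/- siGLO against WT siGLO, 6 fell with siPds5b and 5 with siStag2 in *Pds5a*-/- cells. Of all tested genes, 17.8%, 18.2%, 7.59% and 2.24% were DEGs in these comparisons, in the same order. Markers of other lineages also moved with the genotype. Of 5 trophoblast markers, 4 of which passed the filter, all 4 rose in *Pds5a*-/- siGLO against WT siGLO, from a sum of 695.2, 773.9 and 754.2 to one of 1538, 2720 and 2760, with *Krt7* the most abundant in *Pds5a*-/- siGLO. The sum of 5 neuroectoderm markers, with *Nes* the most abundant, was 3383, 3713 and 3972 in WT siGLO and 2247, 2612 and 2288 in *Pds5a*-/- siGLO, where 2 of the 5, *Nes* and *Sox1*, fell. The genes of this list did not move as one, since *Pax6* had means of 43.9 in WT siGLO, 78.9 in *Pds5a*-/- siGLO and 204 in *Pds5b*-/- siGLO, and *Pax6* and *Sox1* rose in *Pds5b*-/- siGLO against WT siGLO. For 5 mesoderm markers, with *Eomes* the most abundant in WT siGLO, the sum was 486.4, 1028 and 1236 in WT siGLO and 324.1, 400.8 and 427.1 in *Pds5b*-/- siGLO, where 1, *Eomes*, fell. That share of 20% was close to the 18.2% of all tested genes. In *Pds5a*-/- siGLO *Eomes* fell as well, while *Hand1* of the same list rose, from 24.92, 28.16 and 33.08 in WT siGLO to 256, 333.9 and 387.5, and was the most abundant of the list in each *Pds5a*-/- condition. The sum of 4 neuron and glia markers, with *Olig2* the most abundant, went with siPds5b in *Pds5a*-/- cells from 778.1, 646.3 and 572.5 to 350.7, 348.3 and 241.2, and 1 of the 4, *Olig2*, fell. *Syt1* of the same list went the other way, from 30.47, 43.96 and 49.16 to 58.59, 75.66 and 57.8, and was not called. *Syt1* and *Rbfox3* were called higher in *Pds5a*-/- siGLO than in WT siGLO. Replicate 1 stood apart in several conditions: the sum of 6 fibroblast markers, with *Col1a1* the most abundant, was 343.3, 962.4 and 1348 in *Pds5a*-/- siGLO. It did not stand apart in this way in *Pds5a*-/- siStag2, where this sum was 639.3, 603.1 and 882.9. The part of this in siStag2 against siGLO was not tested. The same sum was 1074, 1129 and 1484 in WT siGLO, with 1747, 1745 and 2181 in WT siPds5b above it and 314.6, 354.9 and 432.9 in *Pds5b*-/- siGLO below it, both without overlap, and 2 of the 6 fell in *Pds5b*-/- siGLO against WT siGLO (33.3% beside 18.2% of all tested genes). With siPds5b in WT cells 0 of the 6 were called, beside 0.00668% of all tested genes. The sum of 5 endoderm markers, with *Dab2* the most abundant, was 1183, 716.4 and 713.7 in WT siGLO and 1564, 790.3 and 732.5 in *Pds5a*-/- siGLO, but 674.4, 686.8 and 723.5 in *Pds5a*-/- siStag2. In *Pds5b*-/- siGLO it was 2173, 1339 and 1210, above all WT siGLO libraries, and the trophoblast sum of 961.6, 1212 and 1103 and the neuron and glia sum of 836, 844.4 and 858.1 also lay above WT siGLO without overlap, where the latter was 539.7, 554.2 and 482.1. In this comparison 0 of 5 endoderm, 2 of 4 tested trophoblast and 1 of 4 neuron and glia markers were called, beside 18.2% of all tested genes. No marker was at 0 in all 3 libraries of any condition. The part of these markers in the results on the 38 genes was not tested. Because replicate 1 stood apart, the calls on the 38 genes were also made without the 7 libraries numbered 1, an alternative chosen after seeing the data. That alternative does not address the marker shifts that follow the genotype.

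In WT siGLO, the levels of the 38 genes per kilobase of exon differed widely, within pathways as well as between their medians. *Hsp90aa1*, a cytosolic HSP90, led with a level of 35100 ± 3530 (SD, n = 3) normalized counts per kilobase, and *Hspa8*, the constitutive HSP70, followed at 20500 ± 1410. *Asns*, which makes asparagine, was the third at 5630 ± 31, and lay close to the ER chaperone *Hsp90b1* at 5260 ± 170. *Atf4* itself stood at 2280 ± 265. The median level was 1260 normalized counts per kilobase for the enzymes, 1270 for the transporters, 502 for heat shock, 430 for ER folding and 167 for the regulators. At the low end were *Hspa1b* at 46.3 ± 5.62 and *Hspa1a* at 16.1 ± 1.06, the heat-inducible HSP70 genes, and *Slc7a11*, the cystine importer, at 2.29 ± 0.259. *Slc7a11* had between 11 and 68 raw counts per library, and *Hsp90aa1* between 103173 and 178424.

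Comparing each knockout with WT asks what the loss of either PDS5 protein does to these genes. In *Pds5a*-/- siGLO against WT siGLO, 7 of the 38 were DEGs, 1 higher and 6 lower, beside 17.8% of all tested genes. Their share of 18.4% was close to that background, and the median log2FC of the 38 was −0.06 beside 0.00 over all genes. In *Pds5b*-/- siGLO against WT siGLO, 3 of the 38 were DEGs, 1 higher and 2 lower, beside 18.2% of all tested genes, with a median of −0.01 beside −0.00. In *Pds5a*-/- siGLO against *Pds5b*-/- siGLO, which compares the knockout lines directly, 10 were DEGs, 2 higher and 8 lower, beside 19.2%, with a median of −0.06 beside 0.02. The 10 include all 4 of the 38 genes on chromosome 8 (*Calr*, *Dnajb1*, *Herpud1* and *Slc7a5*). DEGs made up 54.4% of that chromosome's tested genes in this comparison, as given further on. These comparisons share libraries, as do those that follow, so their values are given side by side and not as independent results. The *Pds5a*-/- siGLO against WT siGLO count was 4 without WT siGLO replicate 3 and 4 without *Pds5a*-/- siGLO replicate 3, and 1763 DEGs among all genes without *Pds5a*-/- siGLO replicate 2. For *Pds5b*-/- siGLO against WT siGLO, the count over all genes was 1704 without *Pds5b*-/- siGLO replicate 2. The *Pds5a*-/- siGLO against *Pds5b*-/- siGLO count was 6 without *Pds5a*-/- siGLO replicate 2, *Pds5b*-/- siGLO replicate 1 or *Pds5b*-/- siGLO replicate 3, and over all genes 1722, 1837 and 1904 without *Pds5a*-/- siGLO replicate 2, *Pds5b*-/- siGLO replicate 1 and *Pds5b*-/- siGLO replicate 2.

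Knockdown of *Pds5b* asks what a lower level of its transcript does within 48 hours, in WT cells and in *Pds5a*-/- cells. In WT cells edgeR called 0 of the 38, beside 0.00668% of all tested genes, with 2 of the 38 at an unadjusted p under 0.05 and 0 called by DESeq2. In *Pds5a*-/- cells siPds5b lowered 6 of the 38 and raised none, beside 7.59% of all tested genes, with a median log2FC of −0.16 beside −0.00. All 6 are on the ATF4 side: 5 of the 8 enzymes and the regulator *Atf5*. With 1 library left out the 5 enzymes were 3 without *Pds5a*-/- siGLO replicate 1, *Pds5a*-/- siGLO replicate 2 or *Pds5a*-/- siPds5b replicate 1, and 4 without *Pds5a*-/- siGLO replicate 3, *Pds5a*-/- siPds5b replicate 2 or *Pds5a*-/- siPds5b replicate 3. The count of the 38 was 4 without *Pds5a*-/- siGLO replicate 1 or 2 and 5 without any other library of these conditions. For ER folding, edgeR called 0 of 9 here, with 0 at an unadjusted p under 0.05 and 0 by DESeq2, and for heat shock 0 of 8, with 3 at an unadjusted p under 0.05 and 0 by DESeq2. Between these conditions, deviations from the condition mean correlated at 0.676, 0.331 and 0.543 for replicates 1, 2 and 3. For siStag2 and siGLO in the same cells these values were 0.14, 0.244 and 0.23. With replicate number as a block the siPds5b count of the 38 was 10 and that of all genes 1568. The 4 added genes were *Aldh18a1*, *Mthfd2*, *Slc3a2* and *Slc7a5*, with blocked log2FC of −0.31, −0.38, −0.31 and −0.36, all on the ATF4 side. Fitting only the conditions compared gave 3 of the 38. Over all genes the count was 689 without *Pds5a*-/- siGLO replicate 2 and 710 without *Pds5a*-/- siPds5b replicate 2. Without the libraries numbered 1 the count of the 38 was 7, with *Slc3a2* (log2FC −0.32) and *Hspa1b* (0.79) added and *Phgdh* (−0.24) lost.

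Whether siPds5b acts differently in *Pds5a*-/- and WT cells was tested as the interaction of genotype and siRNA. It called 1 of the 38, *Asns*, lower in *Pds5a*-/- cells, beside 1.48% of all tested genes, with a median of −0.14 beside 0.00. DESeq2 added *Psph* and *Shmt2*, for 3 in all, and replicate number as a block added *Shmt2*. Without *Pds5a*-/- siGLO replicate 3, *Psph* was called as well, with a log2FC of −0.75. The count over all genes was 137 without WT siGLO replicate 2, 121 without WT siGLO replicate 3, 136 without WT siPds5b replicate 1, 143 without *Pds5a*-/- siGLO replicate 2 and 122 without *Pds5a*-/- siPds5b replicate 2. It was 389 with replicate number as a block and 410 by DESeq2.

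Knockdown of the STAG subunits in *Pds5a*-/- cells asks whether either has an effect there like that of PDS5B. With siStag1, edgeR called 0 of the 38, beside 0.0936% of all tested genes, with 2 of the 38 at an unadjusted p under 0.05 and 1, *Asns*, called by DESeq2. The same 1 gene was called with the libraries numbered 1 left out. With siStag2, 2 of the 38 were DEGs, both lower, beside 2.24% of all tested genes, with a median log2FC of −0.13 beside 0.01. Both are enzymes, *Asns* and *Psph*, and 32 of the 38 had a negative log2FC, beside 48.8% of all tested genes. In *Pds5a*-/- cells 28 of the 38 were negative with siPds5b, beside 50%, and 18 with siStag1, beside 51.7%. For siStag2 DESeq2 called 4, adding *Phgdh* and *Hspb1*. The siStag2 count was 0 without *Pds5a*-/- siGLO replicate 2, 0 without *Pds5a*-/- siStag2 replicate 1, and 1 without *Pds5a*-/- siGLO replicate 1 or *Pds5a*-/- siStag2 replicate 3. It was 0 when only the conditions compared were fitted and 1 without the libraries numbered 1. Over all genes it was 115 and 128 without *Pds5a*-/- siGLO replicates 1 and 2, and 68 and 158 without *Pds5a*-/- siStag2 replicates 1 and 3. The same count was 677 with replicate number as a block and 775 by DESeq2. For siStag1 the count over all genes was 4 without *Pds5a*-/- siGLO replicate 2, and 6 and 5 without *Pds5a*-/- siStag1 replicates 1 and 2. It was higher with the block, at 48, by DESeq2, at 72, and without the libraries numbered 1, at 101.

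*Pds5a* knockout joined with *Pds5b* knockdown was compared with WT in *Pds5a*-/- siPds5b against WT siGLO. *Pds5b* transcript was lowered and not absent in these cells, with log2FC −1.30 beside −3.01 in the *Pds5b*-/- line. Here 14 of the 38 were DEGs, 1 higher and 13 lower, beside 32% of all tested genes, with a median log2FC of −0.23 beside −0.00. Of the 14, 11 were on the ATF4 side, which holds 21 of the 38 genes, 2 were ER genes and 1 a heat shock gene. The ER count was 0 without WT siGLO replicate 1 and 1 without WT siGLO replicate 2, WT siGLO replicate 3, or *Pds5a*-/- siPds5b replicate 1, 2 or 3, and the heat shock count was 0 without WT siGLO replicate 3. Without the libraries numbered 1 the count was 16.

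**Figure D1:**
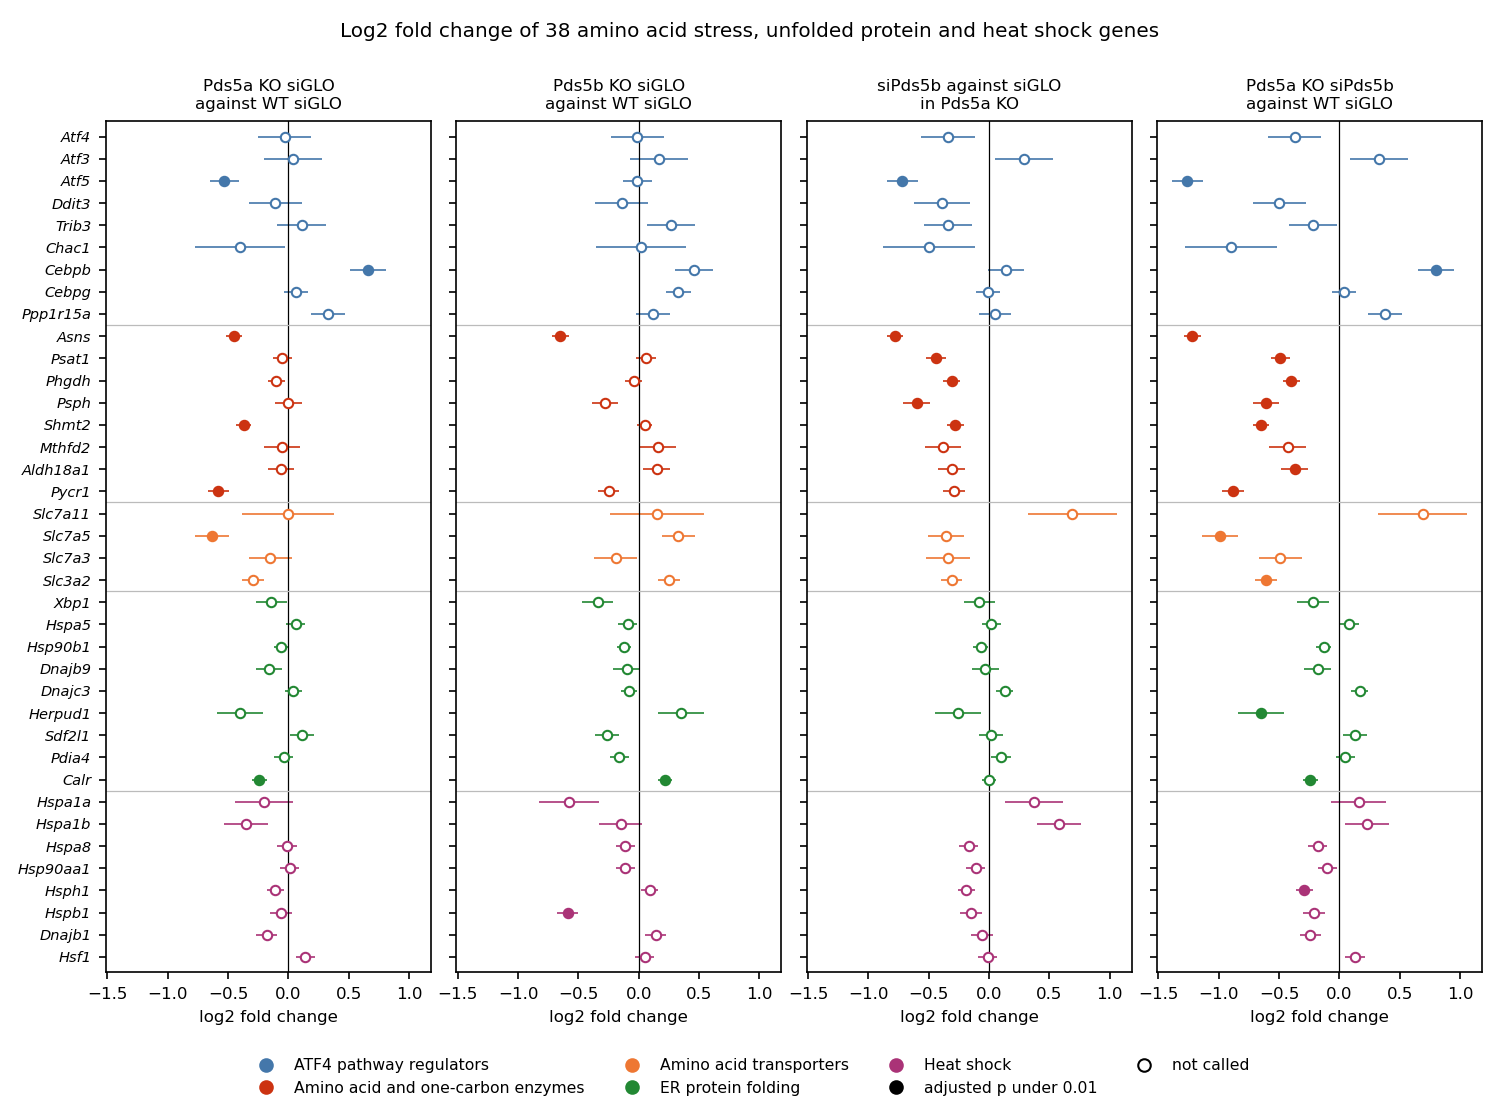
Log2 fold change (x axis) of each of the 38 genes (y axis, grouped by role) in 4 comparisons, with bars for the standard error; filled points passed an adjusted p under 0.01. The 8 enzymes all lie below 0 with siPds5b in Pds5a knockout cells, between −0.78 and −0.28, while the 9 ER genes lie between −0.26 and 0.13.

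The role lists differed in their medians. With siPds5b in *Pds5a*-/- cells the median log2FC was −0.35 for the enzymes, −0.34 for the regulators, −0.33 for the transporters, −0.00 for ER folding and −0.08 for heat shock, beside −0.00 over all tested genes. In *Pds5a*-/- siPds5b against WT siGLO it was −0.55 for the enzymes, −0.22 for the regulators, −0.55 for the transporters, −0.13 for ER folding and −0.14 for heat shock. With siPds5b in WT cells the same medians were −0.09, 0.00, 0.03, −0.01 and 0.01. With siStag2 they were −0.25, −0.31, −0.06, −0.10 and −0.06, and with siStag1 −0.06, 0.03, 0.19, 0.00 and −0.09. With siPds5b in *Pds5a*-/- cells the ER median was 0.01 by RLE scaling and 0.04 by library size. The medians over all tested genes were also 0.01 and 0.04 in these scalings. A change of scaling moves all genes alike, so the change of sign says nothing about the ER list. The medians of the enzymes, regulators and transporters kept their sign. Per library, the median log2 ratio of the 8 enzymes to the WT siGLO mean was −0.51, −0.52 and −0.66 in *Pds5a*-/- siPds5b and −0.39, −0.35 and −0.55 in *Pds5a*-/- siStag2. It was −0.02, −0.09 and −0.27 in *Pds5a*-/- siGLO and −0.09, −0.20 and −0.20 in *Pds5a*-/- siStag1. The 3 *Pds5a*-/- siPds5b libraries and the 3 *Pds5a*-/- siStag2 libraries were all below the *Pds5a*-/- siGLO libraries by this measure. The transporter medians overlapped instead. They were −0.00, −0.28 and −0.57 in *Pds5a*-/- siGLO, −0.30, −0.57 and −0.83 in *Pds5a*-/- siPds5b and −0.24, −0.29 and −0.76 in *Pds5a*-/- siStag2. For the regulators, *Pds5a*-/- siPds5b replicate 1 stood apart, at 0.11 beside −0.37 and −0.38.

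**Figure D2:**
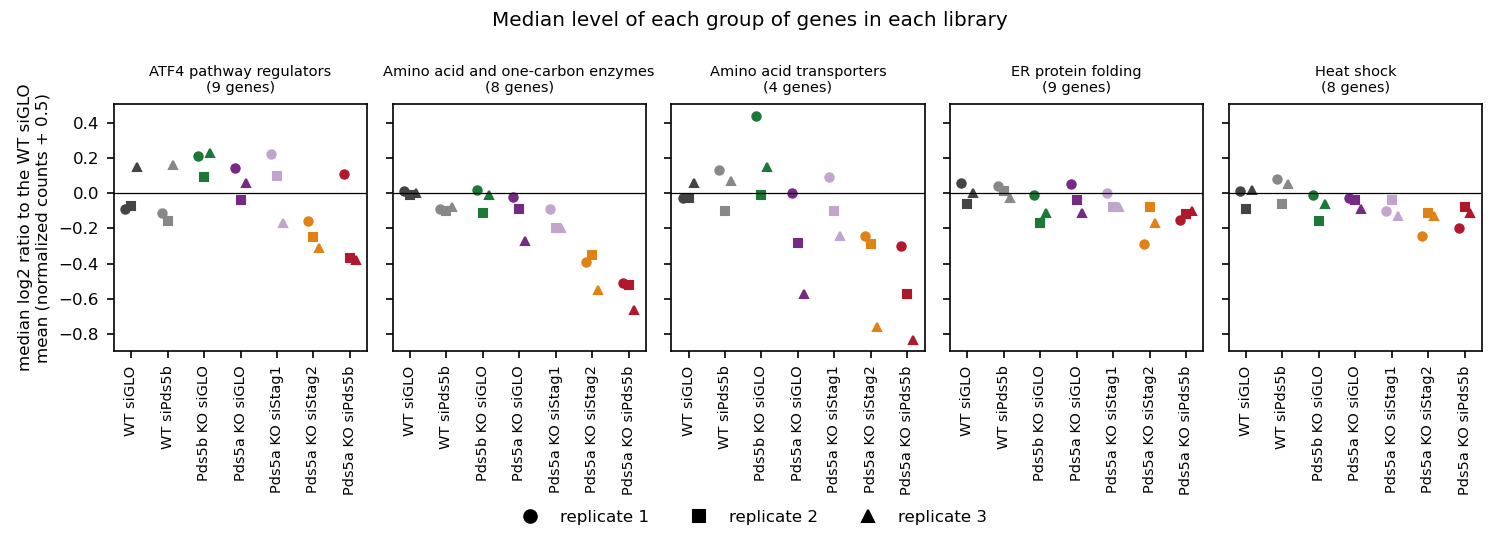
Median over the genes of each role list of the log2 ratio to the WT siGLO mean (y axis) in each of the 21 libraries (x axis, by condition; symbols are replicates). The enzyme medians of the 3 Pds5a knockout siPds5b libraries are −0.51, −0.52 and −0.66, and the heat shock medians of the same libraries −0.20, −0.08 and −0.11.

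Among the regulators, *Atf4* encodes the factor that the enzyme and transporter genes respond to. Its mRNA had 5467, 4720 and 5962 normalized counts in WT siGLO, 5846, 4275 and 6070 in WT siPds5b, 6556, 4772 and 4457 in *Pds5a*-/- siGLO and 5334, 4932 and 5761 in *Pds5b*-/- siGLO. It had 5458, 3956 and 3040 in *Pds5a*-/- siPds5b, 6434, 4793 and 4773 in *Pds5a*-/- siStag1 and 4721, 3865 and 3069 in *Pds5a*-/- siStag2. Each of the other 6 groups overlaps WT siGLO, and replicate 1 is the highest of its group in each of the 4 *Pds5a*-/- conditions. The *Atf4* log2FC was −0.34 ± 0.22 (adjusted p = 0.332) with siPds5b in *Pds5a*-/- cells, −0.44 ± 0.22 (adjusted p = 0.23) with siStag2 and −0.37 ± 0.22 (adjusted p = 0.182) in *Pds5a*-/- siPds5b against WT siGLO. None of these passed, and *Atf4* was not a DEG in any of the 9 comparisons.

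*Atf5*, a related factor that is itself induced through ATF4, had 548.2, 573.4 and 691.3 normalized counts in WT siGLO, 556.3, 520.2 and 562.5 in WT siPds5b, 392.1, 464.9 and 398.1 in *Pds5a*-/- siGLO and 580.6, 546.3 and 677.5 in *Pds5b*-/- siGLO. It had 225.5, 253.9 and 281 in *Pds5a*-/- siPds5b, 387.6, 410.1 and 344.1 in *Pds5a*-/- siStag1 and 395.3, 345.1 and 274.9 in *Pds5a*-/- siStag2. The *Pds5a*-/- siGLO libraries lay below all WT and *Pds5b*-/- libraries, and the *Pds5a*-/- siPds5b libraries below the *Pds5a*-/- siGLO libraries without overlap. *Atf5* fell with siPds5b in *Pds5a*-/- cells with a log2FC of −0.72 ± 0.13 (adjusted p = 0.000386). It was lower in *Pds5a*-/- siGLO than in WT siGLO, with log2FC −0.53 ± 0.12 (adjusted p = 0.00221), and than in *Pds5b*-/- siGLO, with log2FC −0.52 ± 0.12 (adjusted p = 0.00245). Its log2FC in *Pds5a*-/- siPds5b against WT siGLO was −1.26 ± 0.13 (adjusted p = 3.27e-08), the largest of the called differences among the 38 genes. The *Atf5* call in *Pds5a*-/- siGLO against WT siGLO was lost at −0.43 without WT siGLO replicate 3 and at −0.50 without *Pds5a*-/- siGLO replicate 3. Against *Pds5b*-/- siGLO it was lost at −0.46 without *Pds5b*-/- siGLO replicate 3. The interaction of *Atf5*, −0.58 ± 0.18 (adjusted p = 0.0708), did not pass. *Atf5* shares 82 exon bases with each of the opposite-strand genes *Il4i1* and *Nup62*, and whether counting used the strand is not stated.

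*Cebpb*, a factor that pairs with ATF4 on DNA, was the 1 gene of the 38 called higher in *Pds5a*-/- siGLO than in WT siGLO. It had 174.4, 172.4 and 172.8 normalized counts in WT siGLO, 149.8, 158.5 and 208.9 in WT siPds5b, 282.4, 308.7 and 227.5 in *Pds5a*-/- siGLO and 303, 189.4 and 225.2 in *Pds5b*-/- siGLO. It had 294.7, 319.2 and 289 in *Pds5a*-/- siPds5b, 221.9, 212.2 and 259.6 in *Pds5a*-/- siStag1 and 282.1, 282 and 250.4 in *Pds5a*-/- siStag2. The WT siGLO libraries lay below every *Pds5a*-/- and *Pds5b*-/- library, and the *Pds5a*-/- groups overlap each other in part. *Cebpb* was higher in *Pds5a*-/- siGLO than in WT siGLO with a log2FC of 0.66 ± 0.15 (adjusted p = 0.00244), and in *Pds5a*-/- siPds5b with log2FC 0.80 ± 0.15 (adjusted p = 0.000184). In *Pds5a*-/- siGLO against WT siGLO the call was lost at 0.65 without WT siGLO replicate 3 and at 0.55 without *Pds5a*-/- siGLO replicate 2. In *Pds5b*-/- siGLO against WT siGLO its log2FC of 0.46 ± 0.16 (adjusted p = 0.0258) did not pass, but was 0.60 and called without *Pds5b*-/- siGLO replicate 2. *Cebpb* shares 312 exon bases with the opposite-strand gene *Tmem189*.

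Of the other 6 regulators none was called in any of the 9 comparisons by the edgeR model of all 21 libraries. Their log2FC with siPds5b in *Pds5a*-/- cells ran from −0.50 for *Chac1*, which breaks down glutathione, through −0.39 for the cell death factor *Ddit3* and −0.34 for the pseudokinase *Trib3*, to 0.29 for *Atf3*. *Chac1* had 318.8, 349.2 and 504.4 normalized counts in WT siGLO and 343.6, 159.6 and 119.6 in *Pds5a*-/- siPds5b, where replicate 1 lies within the WT range and replicates 2 and 3 lie below it. Its log2FC in *Pds5a*-/- siPds5b against WT siGLO was −0.90 ± 0.38 (adjusted p = 0.0655), and −1.50, past the threshold, without *Pds5a*-/- siPds5b replicate 1. *Ppp1r15a*, which brings a phosphatase to eIF2, had a log2FC of 0.38 ± 0.14 (adjusted p = 0.0262) in the same comparison, and was called there with replicate number as a block, at 0.38. *Cebpg*, the partner of ATF4 in many target promoters, was 0.33 ± 0.10 (adjusted p = 0.0124) in *Pds5b*-/- siGLO against WT siGLO, and 0.40, past the threshold, without *Pds5b*-/- siGLO replicate 1. DESeq2, at 0.34, and the block, at 0.33, called it as well. In *Pds5a*-/- siGLO against *Pds5b*-/- siGLO *Cebpg* was −0.27 (adjusted p = 0.0334), and was called without the libraries numbered 1, at −0.38.

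The enzymes held most of the calls with siPds5b in *Pds5a*-/- cells, 5 of 6, and 3 to 4 enzymes were called with any 1 library of these conditions left out. *Asns*, asparagine synthetase, had 15493, 15347 and 15344 normalized counts in WT siGLO, 12809, 14423 and 14078 in WT siPds5b, 10683, 11891 and 11338 in *Pds5a*-/- siGLO and 10304, 9048 and 10053 in *Pds5b*-/- siGLO. It had 5916, 6890 and 6952 in *Pds5a*-/- siPds5b, 9305, 9028 and 9065 in *Pds5a*-/- siStag1 and 8229, 8992 and 9136 in *Pds5a*-/- siStag2. WT siGLO was the highest group and *Pds5a*-/- siPds5b the lowest, neither overlapping any other condition, and the *Pds5b*-/- siGLO, *Pds5a*-/- siStag1 and *Pds5a*-/- siStag2 groups overlap each other. *Asns* was lower in *Pds5a*-/- siGLO than in WT siGLO with log2FC −0.45 ± 0.07 (adjusted p = 5.36e-05) and in *Pds5b*-/- siGLO with log2FC −0.65 ± 0.07 (adjusted p = 3.68e-07). With siPds5b it fell with log2FC −0.78 ± 0.07 (adjusted p = 8.45e-08) in *Pds5a*-/- cells, and its difference in WT cells, −0.16 ± 0.07 (adjusted p = 1), did not pass. The interaction of genotype and siPds5b was −0.62 ± 0.10 (adjusted p = 0.000756). With siStag2 in *Pds5a*-/- cells *Asns* fell with log2FC −0.36 ± 0.07 (adjusted p = 0.00326), and with siStag1 its log2FC of −0.31 ± 0.07 (adjusted p = 0.0617) did not pass. Its log2FC in *Pds5a*-/- siPds5b against WT siGLO was −1.22 ± 0.07 (adjusted p = 4.17e-12). The siStag2 call on *Asns* was lost at −0.33 without *Pds5a*-/- siGLO replicate 2 and at −0.32 without *Pds5a*-/- siStag2 replicate 1, and at −0.37 with only the conditions compared. DESeq2 gave −0.30 for *Asns* with siStag1, past the threshold, and the fit without the libraries numbered 1 gave −0.36, also past it. In *Pds5a*-/- siGLO against *Pds5b*-/- siGLO *Asns* was 0.21 (adjusted p = 0.0306), not called, and was called without the libraries numbered 1, at 0.28.

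*Psat1*, *Phgdh* and *Psph* are the enzymes that make serine from a glycolytic intermediate. *Psat1* had 13829, 12891 and 11716 normalized counts in *Pds5a*-/- siGLO and 9516, 9744 and 9133 in *Pds5a*-/- siPds5b, beside 13330, 12680 and 13767 in WT siGLO. *Phgdh* had 7094, 7536 and 6577 in *Pds5a*-/- siGLO and 5227, 5878 and 6054 in *Pds5a*-/- siPds5b, beside 7839, 7436 and 7437 in WT siGLO. *Psph* had 2283, 2093 and 1677 in *Pds5a*-/- siGLO, 1500, 1338 and 1140 in *Pds5a*-/- siPds5b and 1193, 1573 and 1396 in *Pds5a*-/- siStag2, beside 2094, 1931 and 2032 in WT siGLO. In each of the 3 genes the *Pds5a*-/- siPds5b libraries lay below all *Pds5a*-/- siGLO and WT siGLO libraries. With siPds5b in *Pds5a*-/- cells *Psat1* fell with log2FC −0.44 ± 0.08 (adjusted p = 0.000322), *Phgdh* with log2FC −0.31 ± 0.07 (adjusted p = 0.00275) and *Psph* with log2FC −0.60 ± 0.11 (adjusted p = 0.000766). In *Pds5a*-/- siPds5b against WT siGLO the log2FC was −0.49 ± 0.08 for *Psat1*, −0.40 ± 0.07 for *Phgdh* and −0.61 ± 0.11 for *Psph*, all called. *Psph* also fell with siStag2, with log2FC −0.54 ± 0.11 (adjusted p = 0.00595). The *Phgdh* call with siPds5b was lost at −0.30 without *Pds5a*-/- siGLO replicate 1, −0.26 without *Pds5a*-/- siGLO replicate 2 and −0.24 without *Pds5a*-/- siPds5b replicate 1. The siStag2 call on *Psph* was lost at −0.44 without *Pds5a*-/- siGLO replicate 1, −0.52 without *Pds5a*-/- siGLO replicate 2, −0.45 without *Pds5a*-/- siStag2 replicate 1 and −0.54 without *Pds5a*-/- siStag2 replicate 3. It was also lost without the libraries numbered 1, at −0.35, and with only the conditions compared, at −0.55. With only the conditions compared the siPds5b calls on *Psph* and *Phgdh* were lost too, at −0.60 and −0.30. The interaction of *Psph*, −0.64 ± 0.16 (adjusted p = 0.0232), did not pass in edgeR. *Psph* shares 452 exon bases with the opposite-strand gene *Cct6a*.

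*Shmt2*, the mitochondrial enzyme that splits serine to feed the folate cycle, had 4602, 4691 and 4612 normalized counts in WT siGLO, 5044, 4918 and 4810 in WT siPds5b, 3654, 3560 and 3520 in *Pds5a*-/- siGLO and 4983, 4764 and 4669 in *Pds5b*-/- siGLO. It had 2907, 2911 and 3015 in *Pds5a*-/- siPds5b, 3667, 3176 and 3192 in *Pds5a*-/- siStag1 and 3613, 3206 and 3121 in *Pds5a*-/- siStag2. All 12 *Pds5a*-/- libraries lay below all WT and *Pds5b*-/- libraries, and the 3 *Pds5a*-/- siPds5b libraries were the lowest. *Shmt2* was lower in *Pds5a*-/- siGLO than in WT siGLO with log2FC −0.37 ± 0.06 (adjusted p = 0.000132), and than in *Pds5b*-/- siGLO with log2FC −0.43 ± 0.07 (adjusted p = 2.71e-05). It fell with siPds5b in *Pds5a*-/- cells with log2FC −0.28 ± 0.07 (adjusted p = 0.00434), and was −0.65 ± 0.07 (adjusted p = 2.38e-08) in *Pds5a*-/- siPds5b against WT siGLO. The siPds5b call was lost at −0.26 without *Pds5a*-/- siGLO replicate 1, −0.29 without *Pds5a*-/- siGLO replicate 2 and −0.29 without *Pds5a*-/- siGLO replicate 3. It was also lost at −0.27 without *Pds5a*-/- siPds5b replicate 1, −0.27 without *Pds5a*-/- siPds5b replicate 2 and −0.30 without *Pds5a*-/- siPds5b replicate 3, at −0.24 with scaling by library size alone and at −0.28 with only the conditions compared. *Shmt2* shares 32 exon bases with the opposite-strand gene *Ndufa4l2*. *Mthfd2*, the next enzyme of the same route, had 3827, 3263 and 3684 in WT siGLO, 4130, 3341 and 2945 in *Pds5a*-/- siGLO and 3128, 2656 and 2202 in *Pds5a*-/- siPds5b, where the *Pds5a*-/- siPds5b group lies below WT siGLO and overlaps *Pds5a*-/- siGLO. The log2FC of *Mthfd2*, −0.43 ± 0.15 (adjusted p = 0.0272), in *Pds5a*-/- siPds5b against WT siGLO did not pass, but was −0.58 and called without *Pds5a*-/- siPds5b replicate 1, and also called with the block, at −0.44.

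*Pycr1* and *Aldh18a1* make proline. *Pycr1* had 849.9, 959.8 and 810.4 normalized counts in WT siGLO, 820.2, 808.1 and 727.8 in WT siPds5b, 633.8, 598.6 and 516.6 in *Pds5a*-/- siGLO and 731.5, 727.8 and 741.6 in *Pds5b*-/- siGLO. It had 485.6, 447.8 and 491.3 in *Pds5a*-/- siPds5b, 581.4, 585.6 and 553.5 in *Pds5a*-/- siStag1 and 442.1, 491.9 and 531.4 in *Pds5a*-/- siStag2. All *Pds5a*-/- libraries lay below all WT and *Pds5b*-/- libraries, and *Pds5a*-/- siPds5b lay below *Pds5a*-/- siGLO without overlap. *Pycr1* was lower in *Pds5a*-/- siGLO than in WT siGLO with log2FC −0.58 ± 0.09 (adjusted p = 3.37e-05), and than in *Pds5b*-/- siGLO with log2FC −0.33 ± 0.09 (adjusted p = 0.00693). It had a log2FC of −0.88 ± 0.09 (adjusted p = 4.26e-08) in *Pds5a*-/- siPds5b against WT siGLO, and with siPds5b in *Pds5a*-/- cells its log2FC of −0.29 ± 0.09 (adjusted p = 0.0299) did not pass. The call against *Pds5b*-/- siGLO was lost at −0.37 without *Pds5a*-/- siGLO replicate 2, −0.27 without *Pds5a*-/- siGLO replicate 3, −0.35 without *Pds5b*-/- siGLO replicate 1, −0.35 without *Pds5b*-/- siGLO replicate 2 and −0.35 without *Pds5b*-/- siGLO replicate 3, and at −0.35 with only the conditions compared. *Aldh18a1* had 2602, 2636 and 2628 in WT siGLO and 2130, 2147 and 1802 in *Pds5a*-/- siPds5b, groups that do not overlap, and a log2FC of −0.37 ± 0.11 (adjusted p = 0.00916). That call was lost at −0.38 without WT siGLO replicate 1, −0.38 without WT siGLO replicate 2, −0.37 without WT siGLO replicate 3, −0.42 without *Pds5a*-/- siPds5b replicate 2 and −0.30 without *Pds5a*-/- siPds5b replicate 3. It was also lost by RLE scaling, at −0.37, by library size alone, at −0.34, without the filter, at −0.38, and with a stricter floor on expression, at −0.37.

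**Figure D3:**
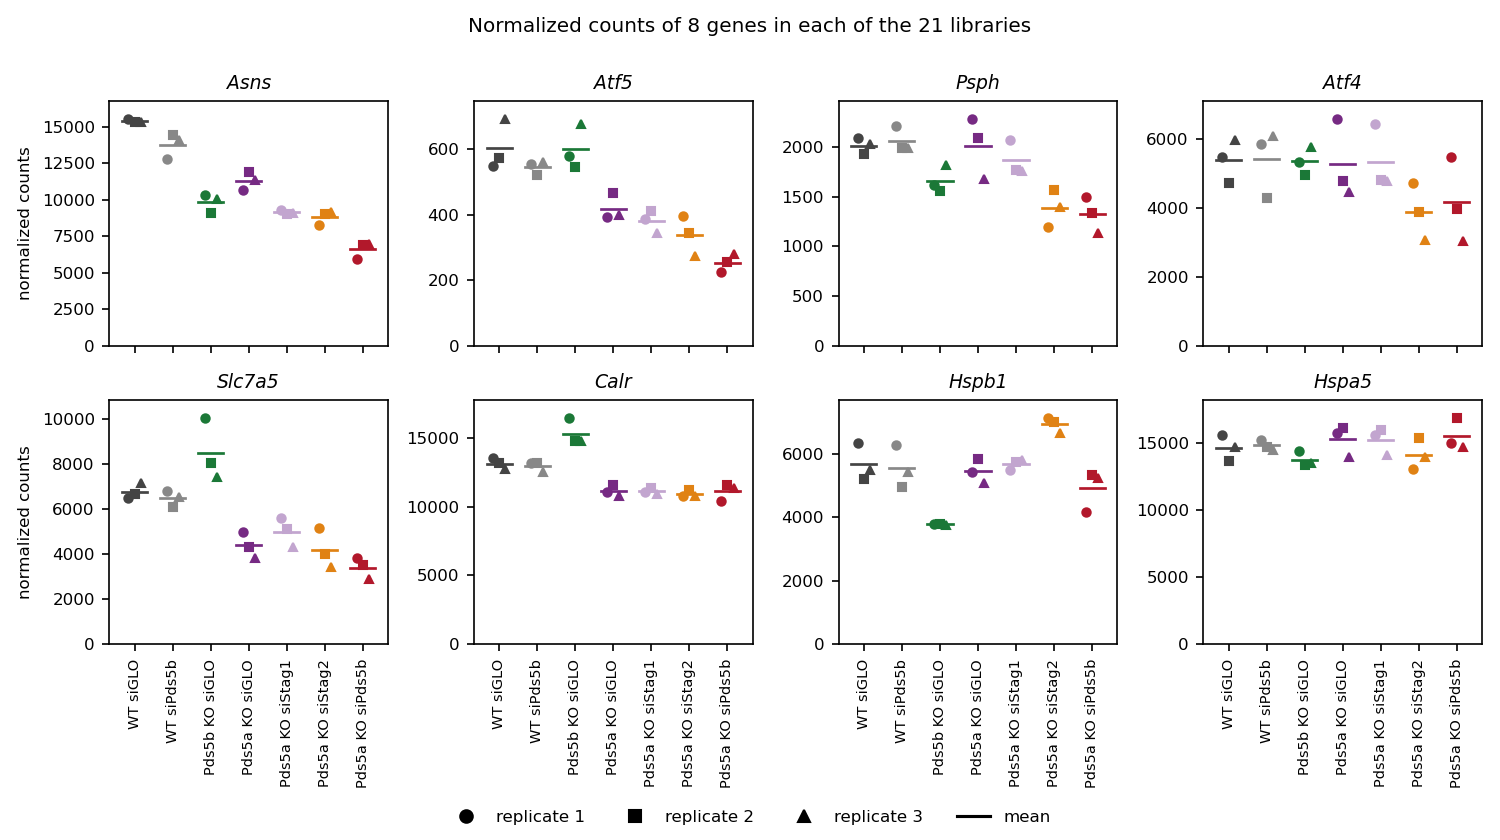
Normalized counts (y axis, from 0) of 8 genes in each of the 21 libraries, by condition (x axis); symbols are replicates and lines are means of 3. Asns lies between 5916 and 6952 in Pds5a knockout siPds5b and between 15344 and 15493 in WT siGLO, while Hspa5 lies between 13054 and 16872 over all 21 libraries.

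The transporters bring amino acids into the cell. *Slc7a5*, the exchanger of large neutral amino acids, had 6500, 6668 and 7162 normalized counts in WT siGLO, 6780, 6102 and 6529 in WT siPds5b, 4977, 4330 and 3848 in *Pds5a*-/- siGLO and 10037, 8030 and 7408 in *Pds5b*-/- siGLO. It had 3832, 3504 and 2883 in *Pds5a*-/- siPds5b, 5613, 5096 and 4300 in *Pds5a*-/- siStag1 and 5154, 4012 and 3430 in *Pds5a*-/- siStag2. The *Pds5b*-/- siGLO libraries were the highest and the *Pds5a*-/- siPds5b libraries lay below all *Pds5a*-/- siGLO libraries, while *Pds5a*-/- siStag1 and *Pds5a*-/- siStag2 overlap *Pds5a*-/- siGLO. The *Slc7a5* log2FC in *Pds5b*-/- siGLO against WT siGLO, 0.33, was not called. The gene lies on chromosome 8, whose median there was 0.29, as given further on. *Slc7a5* was lower in *Pds5a*-/- siGLO than in WT siGLO with log2FC −0.63 ± 0.14 (adjusted p = 0.00307), and than in *Pds5b*-/- siGLO with log2FC −0.95 ± 0.15 (adjusted p = 7.98e-05). It had a log2FC of −0.99 ± 0.15 (adjusted p = 2.41e-05) in *Pds5a*-/- siPds5b against WT siGLO, and with siPds5b in *Pds5a*-/- cells its log2FC of −0.36 ± 0.15 (adjusted p = 0.101) did not pass. The call in *Pds5a*-/- siGLO against WT siGLO was lost at −0.59 without WT siGLO replicate 3, −0.62 without *Pds5a*-/- siGLO replicate 2 and −0.55 without *Pds5a*-/- siGLO replicate 3.

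*Slc3a2*, the heavy chain that carries *Slc7a5* and *Slc7a11* to the cell surface, had 5267, 5168 and 5475 normalized counts in WT siGLO, 5799, 5145 and 5367 in WT siPds5b, 4705, 4263 and 4031 in *Pds5a*-/- siGLO and 6613, 6203 and 6102 in *Pds5b*-/- siGLO. It had 3814, 3357 and 3287 in *Pds5a*-/- siPds5b, 5153, 4369 and 4277 in *Pds5a*-/- siStag1 and 4760, 4009 and 3659 in *Pds5a*-/- siStag2. *Pds5b*-/- siGLO was the highest group and *Pds5a*-/- siPds5b lay below all *Pds5a*-/- siGLO libraries. *Slc3a2* was lower in *Pds5a*-/- siGLO than in *Pds5b*-/- siGLO with log2FC −0.54 ± 0.09 (adjusted p = 6.96e-05), and in *Pds5a*-/- siPds5b than in WT siGLO with log2FC −0.61 ± 0.09 (adjusted p = 7.87e-06). In *Pds5a*-/- siGLO against WT siGLO its log2FC of −0.29 ± 0.09 (adjusted p = 0.0159) did not pass, but was −0.36 and called without *Pds5a*-/- siGLO replicate 1, and also called with the block, at −0.30. In *Pds5b*-/- siGLO against WT siGLO it was 0.25 ± 0.09 (adjusted p = 0.035), not called, and was called with the block, at 0.25. *Slc7a3*, an importer of arginine and lysine, had 4139, 3670 and 4038 in WT siGLO and 3606, 2822 and 2000 in *Pds5a*-/- siPds5b, with no overlap. Its log2FC of −0.49 ± 0.18 (adjusted p = 0.0337) did not pass, but was −0.73 and called without *Pds5a*-/- siPds5b replicate 1. DESeq2, at −0.49, the block, at −0.51, and the fit without the libraries numbered 1, at −0.68, called it too. *Slc7a11*, at 11 to 68 raw counts per library, had its largest log2FC of 0.80 ± 0.37 with siStag1 and was called in none of the 9 comparisons.

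The ER folding genes include the regulator *Xbp1*, whose mRNA is spliced to its active form when the ER is stressed, a step that gene counts do not show. *Xbp1* had 1323, 1028 and 1006 normalized counts in WT siGLO, 1227, 1079 and 1039 in WT siPds5b, 1152, 1075 and 821.2 in *Pds5a*-/- siGLO and 1003, 817.5 and 842.5 in *Pds5b*-/- siGLO. It had 887.8, 1025 and 964.7 in *Pds5a*-/- siPds5b, 1111, 1046 and 947.8 in *Pds5a*-/- siStag1 and 848.1, 1069 and 833.9 in *Pds5a*-/- siStag2. The *Pds5b*-/- siGLO group lay just below WT siGLO, and the other groups overlap WT siGLO. *Xbp1* had its largest log2FC, −0.34 ± 0.13 (adjusted p = 0.0486), in *Pds5b*-/- siGLO against WT siGLO, and was not a DEG in any comparison. The abundant chaperones *Hspa5* (BiP) and *Hsp90b1*, the co-chaperones *Dnajb9* and *Dnajc3* and the disulfide isomerase *Pdia4* were not called in any comparison either. *Hspa5* had 15578, 13673 and 14752 in WT siGLO and 15032, 16872 and 14723 in *Pds5a*-/- siPds5b, overlapping groups with a log2FC of 0.08 ± 0.08. Over the 9 comparisons, *Hspa5* had log2FC between −0.11 and 0.15.

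*Calr*, calreticulin, folds glycoproteins and holds calcium in the ER. It had 13518, 13131 and 12715 normalized counts in WT siGLO, 13177, 13192 and 12518 in WT siPds5b, 11095, 11533 and 10758 in *Pds5a*-/- siGLO and 16427, 14753 and 14741 in *Pds5b*-/- siGLO. It had 10435, 11548 and 11378 in *Pds5a*-/- siPds5b, 11089, 11342 and 10938 in *Pds5a*-/- siStag1 and 10754, 11235 and 10799 in *Pds5a*-/- siStag2. *Pds5b*-/- siGLO was the highest group, all *Pds5a*-/- libraries lay below all WT libraries, and the 4 *Pds5a*-/- groups overlap each other. *Calr* was lower in *Pds5a*-/- siGLO than in WT siGLO with log2FC −0.24 ± 0.06 (adjusted p = 0.00494), than in *Pds5b*-/- siGLO with log2FC −0.46 ± 0.06 (adjusted p = 4.57e-06), and in *Pds5a*-/- siPds5b than in WT siGLO with log2FC −0.24 ± 0.06 (adjusted p = 0.00277). In *Pds5b*-/- siGLO it was higher than in WT siGLO with log2FC 0.22 ± 0.06 (adjusted p = 0.00791). The call in *Pds5a*-/- siGLO against WT siGLO was lost at −0.22 without WT siGLO replicate 1, −0.24 without WT siGLO replicate 2, −0.24 without *Pds5a*-/- siGLO replicate 1 and −0.22 without *Pds5a*-/- siGLO replicate 3. In *Pds5b*-/- siGLO against WT siGLO it was lost at 0.23 without WT siGLO replicate 2, 0.21 without WT siGLO replicate 3, 0.18 without *Pds5b*-/- siGLO replicate 1 and 0.25 without *Pds5b*-/- siGLO replicate 2. In *Pds5a*-/- siPds5b against WT siGLO it was lost at −0.22 without WT siGLO replicate 1 and −0.21 without *Pds5a*-/- siPds5b replicate 1. Without the libraries numbered 1 all 3 of these calls were lost, at −0.22, 0.19 and −0.17 in the same order. Both calls of a knockout against WT were also lost without the filter, at −0.23 and 0.23, and with only the conditions compared, at −0.24 and 0.22. *Calr* lies on chromosome 8, whose genes shifted together as given further on.

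*Herpud1*, a membrane protein of ER-associated degradation, had 429.7, 437.1 and 502 normalized counts in WT siGLO, 476.8, 388.4 and 497.1 in WT siPds5b, 474.4, 276.9 and 289.1 in *Pds5a*-/- siGLO and 604.8, 557.3 and 587.2 in *Pds5b*-/- siGLO. It had 375.5, 280.9 and 211.3 in *Pds5a*-/- siPds5b, 425.4, 420.1 and 350 in *Pds5a*-/- siStag1 and 289.9, 299.2 and 219.7 in *Pds5a*-/- siStag2. *Pds5b*-/- siGLO was the highest group, and *Pds5a*-/- siGLO overlaps WT siGLO because its replicate 1 lies within the WT siGLO range. The *Herpud1* log2FC in *Pds5b*-/- siGLO against WT siGLO, 0.35, was not called. This gene too lies on chromosome 8, whose median there was 0.29. *Herpud1* was lower in *Pds5a*-/- siGLO than in *Pds5b*-/- siGLO with log2FC −0.75 ± 0.19 (adjusted p = 0.00483), and in *Pds5a*-/- siPds5b than in WT siGLO with log2FC −0.65 ± 0.19 (adjusted p = 0.00875). The call against *Pds5b*-/- siGLO was lost at −0.63 without *Pds5a*-/- siGLO replicate 2, −0.66 without *Pds5a*-/- siGLO replicate 3, −0.74 without *Pds5b*-/- siGLO replicate 1, −0.79 without *Pds5b*-/- siGLO replicate 2 and −0.77 without *Pds5b*-/- siGLO replicate 3, and at −0.77 with only the conditions compared. The call in *Pds5a*-/- siPds5b against WT siGLO was lost at −0.70 without WT siGLO replicate 1, −0.69 without WT siGLO replicate 2, −0.58 without WT siGLO replicate 3, −0.64 without *Pds5a*-/- siPds5b replicate 2 and −0.48 without *Pds5a*-/- siPds5b replicate 3, at −0.66 without the filter and at −0.65 with only the conditions compared. In *Pds5a*-/- siGLO against WT siGLO its log2FC of −0.40 ± 0.19 (adjusted p = 0.126) did not pass, but was −0.70 and called without *Pds5a*-/- siGLO replicate 1. *Sdf2l1*, an ER co-chaperone factor, had 485.5, 539.7 and 518.5 in *Pds5a*-/- siGLO and 399, 355.9 and 439.7 in *Pds5b*-/- siGLO, with 495, 447.2 and 487.9 in WT siGLO and 581.7, 564.8 and 452.3 in WT siPds5b. It had 527.3, 513.1 and 528.2 in *Pds5a*-/- siPds5b, 524.2, 502.3 and 491.6 in *Pds5a*-/- siStag1 and 423.6, 526.2 and 513 in *Pds5a*-/- siStag2. The *Pds5b*-/- siGLO libraries were the lowest but for *Pds5a*-/- siStag2 replicate 1. *Sdf2l1* was higher in *Pds5a*-/- siGLO than in *Pds5b*-/- siGLO with log2FC 0.37 ± 0.10 (adjusted p = 0.00878), a call lost at 0.39 without *Pds5a*-/- siGLO replicate 1, 0.32 without *Pds5a*-/- siGLO replicate 2, 0.34 without *Pds5a*-/- siGLO replicate 3, 0.35 without *Pds5b*-/- siGLO replicate 1 and 0.28 without *Pds5b*-/- siGLO replicate 2. It was also lost with RLE scaling at 0.35, without the filter at 0.36, with a stricter floor on expression at 0.35, with only the conditions compared at 0.36 and without the libraries numbered 1 at 0.41.

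The heat shock genes include *Hsf1*, the factor that turns the others on once its protein is released from chaperones. *Hsf1* had 684.9, 757 and 777.3 normalized counts in WT siGLO, 775.3, 752.3 and 770.3 in WT siPds5b, 791.3, 811.9 and 842.4 in *Pds5a*-/- siGLO and 716.7, 794.6 and 786.2 in *Pds5b*-/- siGLO. It had 823, 833.3 and 766.4 in *Pds5a*-/- siPds5b, 718, 787.9 and 780.6 in *Pds5a*-/- siStag1 and 893, 794.5 and 852.3 in *Pds5a*-/- siStag2. The *Pds5a*-/- siGLO libraries lay just above the WT siGLO libraries, and the other groups overlap WT siGLO except *Pds5a*-/- siStag2, which lies above it. *Hsf1* had log2FC between −0.10 and 0.14 in the 9 comparisons and was not a DEG in any of them.

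*Hspb1*, the small heat shock protein HSP27, had 6325, 5193 and 5489 normalized counts in WT siGLO, 6266, 4934 and 5405 in WT siPds5b, 5435, 5818 and 5062 in *Pds5a*-/- siGLO and 3778, 3790 and 3758 in *Pds5b*-/- siGLO. It had 4165, 5322 and 5226 in *Pds5a*-/- siPds5b, 5469, 5736 and 5783 in *Pds5a*-/- siStag1 and 7116, 6987 and 6660 in *Pds5a*-/- siStag2. *Pds5b*-/- siGLO was the lowest and *Pds5a*-/- siStag2 the highest of the 7 groups, and neither overlaps another. *Hspb1* was lower in *Pds5b*-/- siGLO than in WT siGLO with log2FC −0.59 ± 0.09 (adjusted p = 3.56e-05), and higher in *Pds5a*-/- siGLO than in *Pds5b*-/- siGLO with log2FC 0.53 ± 0.09 (adjusted p = 0.000125). With siStag2 in *Pds5a*-/- cells its log2FC of 0.35 ± 0.09 (adjusted p = 0.0197) did not pass in edgeR and passed in DESeq2, where it was also 0.35.

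*Hsph1*, an HSP110 that helps HSP70 release its clients, had 4037, 3810 and 4316 normalized counts in WT siGLO, 3997, 3557 and 4275 in WT siPds5b, 4035, 3624 and 3636 in *Pds5a*-/- siGLO and 4689, 4172 and 4110 in *Pds5b*-/- siGLO. It had 3334, 3340 and 3251 in *Pds5a*-/- siPds5b, 3859, 4324 and 4049 in *Pds5a*-/- siStag1 and 3728, 3692 and 3640 in *Pds5a*-/- siStag2. The *Pds5a*-/- siPds5b libraries were the lowest of the 21. *Hsph1* was lower in *Pds5a*-/- siPds5b than in WT siGLO with log2FC −0.29 ± 0.07 (adjusted p = 0.00218), a call lost at −0.25 without WT siGLO replicate 3. *Dnajb1*, the HSP40 that loads clients onto HSP70, had 1457, 1393 and 1446 in WT siGLO, 1530, 1539 and 1480 in WT siPds5b, 1177, 1245 and 1368 in *Pds5a*-/- siGLO and 1539, 1469 and 1740 in *Pds5b*-/- siGLO. It had 1088, 1234 and 1324 in *Pds5a*-/- siPds5b, 1136, 1143 and 1231 in *Pds5a*-/- siStag1 and 992.6, 1271 and 1321 in *Pds5a*-/- siStag2. All *Pds5a*-/- libraries lay below all WT and *Pds5b*-/- libraries. *Dnajb1* was lower in *Pds5a*-/- siGLO than in *Pds5b*-/- siGLO with log2FC −0.33 ± 0.09 (adjusted p = 0.00983), a call lost at −0.30 without *Pds5a*-/- siGLO replicate 1, −0.33 without *Pds5a*-/- siGLO replicate 2, −0.36 without *Pds5b*-/- siGLO replicate 1 and −0.28 without *Pds5b*-/- siGLO replicate 3. It was also lost with only the conditions compared, at −0.34, and without the libraries numbered 1, at −0.30. *Dnajb1* lies on chromosome 8, and the sign of this difference turned after the chromosome median was taken off, as given further on.

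*Hspa8* and *Hsp90aa1*, the most abundant of the 38 genes per kilobase, were not called in any comparison. *Hsp90aa1* had 141375, 143371 and 131296 normalized counts in *Pds5a*-/- siGLO and 106150, 118289 and 120699 in *Pds5a*-/- siStag2, groups that do not overlap, with a log2FC of −0.27 ± 0.08 (adjusted p = 0.0455) that did not pass. *Hspa1a* and *Hspa1b* have nearly the same sequence, so reads may not be assigned well between them, and they were also tested as a sum. With siPds5b in *Pds5a*-/- cells, *Hspa1b* had 105.6, 92.6 and 106 normalized counts in *Pds5a*-/- siGLO and 114.5, 170 and 172.4 in *Pds5a*-/- siPds5b, with no overlap. Its log2FC was 0.58 ± 0.18 (adjusted p = 0.0299), and 0.76, past the threshold, without *Pds5a*-/- siPds5b replicate 1. The sum had a log2FC of 0.52 ± 0.16 (adjusted p = 0.0296) there and was not called in any comparison.

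Other genes of the same pathways were read from lists drawn up alongside the 38. Of 15 further genes of eIF2 control, 5 were DEGs in *Pds5b*-/- siGLO against WT siGLO (2 higher, 3 lower), or 33.3% beside 18.2% of all tested genes, and 1 in *Pds5a*-/- siGLO against WT siGLO (higher), or 6.67% beside 17.8%. With siPds5b in *Pds5a*-/- cells 3 were DEGs, all lower (20% beside 7.59%), with siStag2 2, both lower (13.3% beside 2.24%), and in *Pds5a*-/- siPds5b against WT siGLO 3, 1 higher and 2 lower (20% beside 32%). A count of 5, 3 higher and 2 lower, came from *Pds5a*-/- siGLO against *Pds5b*-/- siGLO (33.3% beside 19.2%). *Impact*, an inhibitor of GCN2, had 2697, 2726 and 2984 normalized counts in WT siGLO, 3245, 3131 and 3014 in *Pds5a*-/- siGLO and 6192, 5862 and 6054 in *Pds5b*-/- siGLO. The *Pds5b*-/- siGLO libraries lay far above all others, with log2FC 1.11 ± 0.09 against WT siGLO, and *Pds5a*-/- siGLO against *Pds5b*-/- siGLO was −0.95 ± 0.09. *Eif2s2*, a subunit of eIF2, had 24334, 24684 and 22075 in *Pds5a*-/- siGLO, 18495, 18064 and 16177 in *Pds5a*-/- siPds5b and 15579, 17626 and 16243 in *Pds5a*-/- siStag2. Both knockdown groups lay below *Pds5a*-/- siGLO, with log2FC of −0.43 ± 0.09 for siPds5b and −0.52 ± 0.09 for siStag2. Against WT siGLO, *Eif2s2* was −0.46 ± 0.09 in *Pds5a*-/- siPds5b and −0.32 ± 0.09 in *Pds5b*-/- siGLO. The *Pds5b*-/- siGLO call was lost at −0.24 without WT siGLO replicate 1, −0.31 without WT siGLO replicate 3, −0.24 without *Pds5b*-/- siGLO replicate 2 and −0.29 without *Pds5b*-/- siGLO replicate 3. It was also lost with RLE scaling, at −0.30, without the filter, at −0.30, with a stricter floor on expression, at −0.31, and with only the conditions compared, at −0.31. The siPds5b call was lost at −0.40 without *Pds5a*-/- siGLO replicate 2 and −0.37 without *Pds5a*-/- siPds5b replicate 3, and the siStag2 call at −0.49 without *Pds5a*-/- siStag2 replicate 1.

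Of 23 further ATF4 targets, 6 were DEGs in *Pds5a*-/- siGLO against WT siGLO (2 higher, 4 lower), or 26.1% beside 17.8% of all tested genes, and 5 in *Pds5b*-/- siGLO against WT siGLO (1 higher, 4 lower), or 21.7% beside 18.2%. In *Pds5a*-/- siPds5b against WT siGLO 14 were DEGs (3 higher, 11 lower), or 60.9% beside 32%, and in *Pds5a*-/- siGLO against *Pds5b*-/- siGLO 5 (3 higher, 2 lower), or 21.7% beside 19.2%. With siPds5b in *Pds5a*-/- cells 5 were DEGs, all lower (*Cbs*, *Got1*, *Gpt2*, *Mthfd1l* and *Shmt1*), or 21.7% beside 7.59%, and with siStag2 3, all lower, or 13% beside 2.24%. Their median log2FC was −0.28 with siPds5b and −0.22 with siStag2 in *Pds5a*-/- cells, beside −0.00 and 0.01 over all tested genes. *Gdf15*, a secreted stress signal, had 123.7, 101.4 and 113.3 normalized counts in WT siGLO, 33.52, 43.02 and 43.37 in *Pds5a*-/- siGLO, 51.72, 80.76 and 89.3 in *Pds5b*-/- siGLO and 27.52, 27.98 and 29.9 in *Pds5a*-/- siPds5b. All *Pds5a*-/- libraries among these lay below the WT siGLO and *Pds5b*-/- libraries, with log2FC −1.49 ± 0.26 for *Pds5a*-/- siGLO and −1.99 ± 0.28 for *Pds5a*-/- siPds5b against WT siGLO. *Fgf21*, a secreted metabolic hormone, was near the limit of detection, with 3.437, 2.253 and 0.8269 normalized counts in WT siGLO and 12.19, 16.84 and 8.674 in *Pds5a*-/- siGLO. It was called higher in *Pds5a*-/- siGLO (adjusted p = 0.0036), and not called without WT siGLO replicate 2, WT siGLO replicate 3 or *Pds5a*-/- siGLO replicate 2, nor without the libraries numbered 1, so no fold is given.

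Of 20 cytosolic tRNA synthetases, which charge tRNAs with amino acids, 10 were DEGs in *Pds5a*-/- siPds5b against WT siGLO (50% beside 32% of all tested genes), 3 with siPds5b in *Pds5a*-/- cells (*Rars*, *Sars* and *Yars*, 15% beside 7.59%) and 4 in *Pds5b*-/- siGLO against WT siGLO (20% beside 18.2%), all of them lower. There were 6 DEGs in *Pds5a*-/- siGLO against *Pds5b*-/- siGLO, 2 higher and 4 lower (30% beside 19.2%). With siStag2 edgeR called 0 of the 20, beside 2.24%, with 8 at an unadjusted p under 0.05 and 1 called by DESeq2. For *Pds5a*-/- siGLO against WT siGLO, edgeR called 0 of the 20, beside 17.8% of all tested genes, with 3 at an unadjusted p under 0.05 and 0 called by DESeq2. All 20 had a negative log2FC with siPds5b in *Pds5a*-/- cells, beside 50% of all tested genes. Their median was −0.21 beside −0.00 over all tested genes. *Cars* had 3591, 3508 and 3581 normalized counts in WT siGLO, 3837, 3711 and 3291 in *Pds5a*-/- siGLO and 2354, 2063 and 2110 in *Pds5b*-/- siGLO. The *Pds5b*-/- siGLO group was the low one, with log2FC −0.71 ± 0.09 against WT siGLO, and *Pds5a*-/- siGLO against *Pds5b*-/- siGLO was 0.73 ± 0.09. With siPds5b in *Pds5a*-/- cells *Cars* was −0.27 ± 0.09 (adjusted p = 0.0319), called only with replicate number as a block, at −0.27. In *Pds5a*-/- siPds5b against WT siGLO it was −0.25 ± 0.09 (adjusted p = 0.0199), and the block called it, at −0.25. *Aars* had 15805, 13908 and 14692 in WT siGLO, 13541, 13182 and 11725 in *Pds5a*-/- siGLO, 20501, 16634 and 16596 in *Pds5b*-/- siGLO and 11888, 11007 and 10317 in *Pds5a*-/- siPds5b, highest in *Pds5b*-/- siGLO without overlap and lowest on average in *Pds5a*-/- siPds5b, which overlaps *Pds5a*-/- siGLO. Its log2FC was −0.48 ± 0.09 in *Pds5a*-/- siGLO against *Pds5b*-/- siGLO and −0.42 ± 0.09 in *Pds5a*-/- siPds5b against WT siGLO. *Aars* lies on chromosome 8, and after the chromosome median was taken off these stood at −0.01 and −0.19.

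Of 30 further genes of the unfolded protein response, 3 were DEGs in *Pds5a*-/- siGLO against WT siGLO, all higher (10% beside 17.8% of all tested genes), 4 in *Pds5a*-/- siPds5b against WT siGLO, all higher (13.3% beside 32%), and 4 in *Pds5b*-/- siGLO against WT siGLO, 3 higher and 1 lower (13.3% beside 18.2%). *Edem3* was the 1 DEG with siPds5b in *Pds5a*-/- cells, higher (3.33% beside 7.59%). *Pds5a*-/- siGLO against *Pds5b*-/- siGLO gave 5, 3 higher and 2 lower (16.7% beside 19.2%). All 5 shares lie below those of all tested genes. With siStag2 edgeR called 0 of the 30, beside 2.24%, with 7 at an unadjusted p under 0.05 and 0 called by DESeq2. The median log2FC with siPds5b in *Pds5a*-/- cells was 0.06 beside −0.00 over all tested genes. *Derl3*, which pulls misfolded proteins out of the ER, had 62.73, 67.59 and 48.79 normalized counts in WT siGLO, 160.5, 113.2 and 129.2 in *Pds5a*-/- siGLO, 77.06, 92.72 and 71.83 in *Pds5b*-/- siGLO and 128.7, 132.7 and 132.5 in *Pds5a*-/- siPds5b. The *Pds5a*-/- siGLO and *Pds5a*-/- siPds5b groups lay above WT siGLO and *Pds5b*-/- siGLO, with log2FC 1.17 ± 0.20 and 1.14 ± 0.20 against WT siGLO and with log2FC 0.73 ± 0.20 for *Pds5a*-/- siGLO against *Pds5b*-/- siGLO. The latter call was lost at 0.57 without *Pds5a*-/- siGLO replicate 1, 0.74 without *Pds5a*-/- siGLO replicate 3, 0.69 without *Pds5b*-/- siGLO replicate 1 and 0.63 without *Pds5b*-/- siGLO replicate 3, at 0.72 with only the conditions compared and at 0.55 without the libraries numbered 1. *Sec24d*, a coat protein of ER export vesicles, had 634.2, 544.1 and 617.7 in WT siGLO, 1072, 1036 and 950.3 in *Pds5a*-/- siGLO, 1022, 900.3 and 878.4 in *Pds5b*-/- siGLO and 1129, 1198 and 1026 in *Pds5a*-/- siPds5b. All knockout groups lay above WT siGLO, with log2FC of 0.77 ± 0.10, 0.64 ± 0.10 and 0.90 ± 0.10 in that order.

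Of 25 further heat shock genes, 3 were DEGs in *Pds5a*-/- siGLO against WT siGLO (2 higher, 1 lower), or 12% beside 17.8% of all tested genes, 2 in *Pds5b*-/- siGLO against WT siGLO (1 higher, 1 lower), or 8% beside 18.2%, and 6 in *Pds5a*-/- siPds5b against WT siGLO (3 higher, 3 lower), or 24% beside 32%. *Pds5a*-/- siGLO against *Pds5b*-/- siGLO gave 6 (2 higher, 4 lower), or 24% beside 19.2%. Knockdown of *Pds5b* in *Pds5a*-/- cells gave 3 DEGs (1 higher, 2 lower), or 12% beside 7.59%, and with siStag2 2, both lower, or 8% beside 2.24%. *Cryab*, a small heat shock protein, had 170.1, 150.9 and 193.5 normalized counts in WT siGLO, 271.2, 470.5 and 502.2 in *Pds5a*-/- siGLO and 322.3, 689.3 and 715.6 in *Pds5a*-/- siPds5b. Both *Pds5a*-/- groups lay above WT siGLO, with replicate 1 the lowest of each, and log2FC of 1.27 ± 0.30 and 1.74 ± 0.30. The *Pds5a*-/- siGLO call was lost at 1.26 without WT siGLO replicate 1, 1.18 without WT siGLO replicate 2, 1.36 without WT siGLO replicate 3, 1.16 without *Pds5a*-/- siGLO replicate 2 and 1.10 without *Pds5a*-/- siGLO replicate 3. *Ptges3*, the HSP90 co-chaperone p23, had 8816, 8809 and 8667 in WT siGLO, 4839, 4623 and 4530 in *Pds5a*-/- siGLO, 10329, 8732 and 8878 in *Pds5b*-/- siGLO and 4537, 4439 and 4363 in *Pds5a*-/- siPds5b. The *Pds5a*-/- siGLO and *Pds5a*-/- siPds5b groups lay far below WT siGLO and *Pds5b*-/- siGLO, with log2FC −0.91 ± 0.06 and −0.98 ± 0.06 against WT siGLO, and *Pds5a*-/- siGLO was also called lower than *Pds5b*-/- siGLO. None of the 5 further lists had a DEG by edgeR with siPds5b in WT cells or with siStag1, where over the 5 lists 4 and 10 genes had an unadjusted p under 0.05 and DESeq2 called 0 and 0. The 5 lists hold 112 distinct genes, since *Nars* is in both the ATF4 target and the tRNA synthetase list and is counted in each, as a DEG in *Pds5a*-/- siPds5b against WT siGLO.

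Among the 38 genes, *Calr*, *Herpud1*, *Dnajb1* and *Slc7a5* lie on chromosome 8, where genes moved together in the knockout lines, and so do 8 genes of the further lists (*Aars*, *Farsa*, *Kars*, *Gdf15*, *Gpt2*, *Eif4ebp1*, *Mbtps1* and *Dnaja2*). The median log2FC of the 779 tested genes of chromosome 8 was −0.19 in *Pds5a*-/- siGLO against WT siGLO, 0.29 in *Pds5b*-/- siGLO against WT siGLO, −0.48 in *Pds5a*-/- siGLO against *Pds5b*-/- siGLO and −0.23 in *Pds5a*-/- siPds5b against WT siGLO. DEGs made up 54.4% of them in *Pds5a*-/- siGLO against *Pds5b*-/- siGLO. After the chromosome median was taken off, *Calr* stood at −0.05 in *Pds5a*-/- siGLO against WT siGLO, −0.07 in *Pds5b*-/- siGLO against WT siGLO, 0.02 in *Pds5a*-/- siGLO against *Pds5b*-/- siGLO and −0.01 in *Pds5a*-/- siPds5b against WT siGLO, so that the sign turned in the comparisons with *Pds5b*-/- siGLO. *Dnajb1* stood at 0.15 in *Pds5a*-/- siGLO against *Pds5b*-/- siGLO, where the sign also turned. *Herpud1* stood at −0.28 in *Pds5a*-/- siGLO against *Pds5b*-/- siGLO and −0.43 in *Pds5a*-/- siPds5b against WT siGLO, and *Slc7a5* at −0.44 in *Pds5a*-/- siGLO against WT siGLO, −0.48 in *Pds5a*-/- siGLO against *Pds5b*-/- siGLO and −0.76 in *Pds5a*-/- siPds5b against WT siGLO. *Aars* stood at −0.01 in *Pds5a*-/- siGLO against *Pds5b*-/- siGLO and −0.19 in *Pds5a*-/- siPds5b against WT siGLO, and *Gdf15* at −1.30 in *Pds5a*-/- siGLO and −1.76 in *Pds5a*-/- siPds5b against WT siGLO. Of the tRNA synthetases called, 3 of 6 in *Pds5a*-/- siGLO against *Pds5b*-/- siGLO and 3 of 10 in *Pds5a*-/- siPds5b against WT siGLO lie there, where after the same subtraction *Farsa* stood at 0.13 and −0.14 and *Kars* at 0.18 and −0.01. Of the further ATF4 targets called in *Pds5a*-/- siPds5b against WT siGLO, 2 of 14 lie there, *Gdf15* and *Gpt2*, which stood at −0.57. *Dnaja2*, *Gpt2* and *Mbtps1* were called in *Pds5b*-/- siGLO against WT siGLO, and stood there at 0.00, 0.22 and 0.23. They were also called in *Pds5a*-/- siGLO against *Pds5b*-/- siGLO, and stood there at 0.06, −0.02 and −0.29. No other chromosome with a gene of the 38 had a median beyond 0.1 in size in any comparison, and the part of the shift in these genes was not tested.

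Promoters were searched for the motifs of these pathways. RefSeq promoters (GRCm38.p6) of 250 bases before the start were found for 33 of the 38 genes, all but *Hspa8*, *Hsp90aa1*, *Hsf1*, *Slc7a5* and *Slc7a3*, and compared with all 32851 in the table, on both strands. The C/EBP-ATF element TGATGNAA was in 6 of the 33 (*Atf3*, *Chac1*, *Asns*, *Pycr1*, *Slc7a11* and *Herpud1*) and in 3.45% of all promoters. The ER stress element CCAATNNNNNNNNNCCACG was in 4 (*Hspa5*, *Hsp90b1*, *Dnajc3* and *Calr*) and in 0.113% of all. The heat shock element GAANNTTCNNGAA was in 0 of the 33, which hold 5 of the 8 heat shock genes, and in 0.466% of all. A match describes the letters and shows no binding. The promoters of the 4 genes with values in every library and a match are shown 5′ to 3′ on the gene's strand, with the motif in capitals. The stretches shown hold 235 bases for *Asns*, 229 for *Pycr1*, 250 for *Herpud1* and 247 for *Calr*, and those under 250 stop short of the RefSeq start. *Asns* is on the minus strand at chr6:7693225-7693459, with its match 23 to 16 bases before the RefSeq start, within an exon of the GENCODE annotation. *Pycr1* is on the minus strand at chr11:120643770-120643998, with its match 103 to 96 bases before the start. *Herpud1* is on the plus strand at chr8:94386179-94386428, with its match in reverse 112 to 105 bases before the start. *Calr* is on the minus strand at chr8:84846935-84847181, with its ER stress element in reverse 162 to 144 bases before the start.
Asns: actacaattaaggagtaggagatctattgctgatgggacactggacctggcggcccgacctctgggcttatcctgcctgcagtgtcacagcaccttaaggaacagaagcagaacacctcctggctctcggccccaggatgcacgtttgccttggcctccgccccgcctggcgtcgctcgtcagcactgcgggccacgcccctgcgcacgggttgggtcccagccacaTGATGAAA
Pycr1: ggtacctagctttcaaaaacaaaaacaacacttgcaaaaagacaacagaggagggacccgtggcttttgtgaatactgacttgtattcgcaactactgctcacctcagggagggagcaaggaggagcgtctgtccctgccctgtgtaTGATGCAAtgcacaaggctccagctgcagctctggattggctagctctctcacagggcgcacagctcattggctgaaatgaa
Herpud1: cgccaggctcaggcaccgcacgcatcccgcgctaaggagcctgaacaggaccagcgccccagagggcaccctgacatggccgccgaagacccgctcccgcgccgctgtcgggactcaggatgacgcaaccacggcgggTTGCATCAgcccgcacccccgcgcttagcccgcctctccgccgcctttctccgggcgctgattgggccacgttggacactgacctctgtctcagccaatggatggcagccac
Calr: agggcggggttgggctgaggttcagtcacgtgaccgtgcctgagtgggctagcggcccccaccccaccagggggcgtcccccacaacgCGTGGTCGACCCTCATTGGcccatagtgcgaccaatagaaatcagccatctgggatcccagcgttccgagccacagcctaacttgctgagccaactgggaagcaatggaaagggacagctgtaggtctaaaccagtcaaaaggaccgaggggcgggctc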

How the data were processed

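Gene counts were used as deposited: the authors prepared poly-A libraries and aligned reads with STAR to mm10. The counting tool, annotation and use of strand are not stated. Counts were fitted in edgeR 4.0.16 (R 4.3.3) with TMM scaling, a filter over the 7 conditions, 1 model of 21 libraries and robust quasi-likelihood F tests, with contrasts from limma 3.58.1. Adjusted p-values are Benjamini-Hochberg over 14963 genes in each comparison. Tables and figures used Python 3.11.15, pandas 2.3.3 and matplotlib 3.10.9. Positions came from GENCODE vM21 and covered 99.4% of tested genes and all 38 members.

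The members and lists were chosen with earlier results of these data known. Every called member is named. *Atf4*, *Xbp1* and *Hsf1* are given in every library, and so are up to 3 members per list with the largest called log2FC at a mean log2 CPM of 1 or more.

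Libraries with the same number had a median correlation of residuals of 0.174 (63 pairs), against −0.082 for other numbers (126 pairs). The residuals are deviations from each condition's mean of 3 libraries, so they sum to 0 within a condition. A positive value for the same number thus forces a negative one for other numbers, which is no independent baseline. Alternatives were DESeq2 1.42.0, RLE scaling, library size alone, no filter, a mean log2 CPM of 1 or more, only the conditions compared, replicate number as a block, each library left out, chromosome medians taken off, and *Hspa1a* with *Hspa1b* summed. Leaving out all libraries numbered 1 was added after seeing the data.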

Additional observations from a re-analysis of the deposited data

Results flagged for a closer look

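The response of *Asns* to siPds5b differed between *Pds5a*-/- and WT cells, with a difference in log2FC of −0.62 in the test of the interaction itself. It was kept under all 8 alternative fits and with each library left out. *Asns* was the 1 gene of the 38 called, or 2.63% beside 1.48% of all tested genes. The interaction also called 4 of the 8 pluripotency genes (*Esrrb*, *Klf4*, *Sox2* and *Zfp42*), all lower. *Tfap2c*, *Olig2* and the further ATF4 target *Cbs* were called lower as well. Technical and biological sources of the *Asns* difference were not tested, and each genotype is a single line.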

How the results depend on the processing

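Of 43 calls on the 38 genes over the 9 comparisons, 29 were kept under all 8 alternative fits, 25 with each library left out, 24 under both, and 0 changed sign in these fits. The chromosome medians taken off carry no test and are not among the 8. Where counts moved, the cause was not tested.

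Counts of the 38 called with replicate number as a block were 5 for *Pds5b*-/- against WT, 10 for siPds5b in *Pds5a*-/- cells and 2 for the interaction. With only the conditions compared they were 6 for *Pds5a*-/- against *Pds5b*-/-, 3 for siPds5b in *Pds5a*-/- cells and 0 for siStag2, where fewer libraries enter the fit. DESeq2 gave 1 for siStag1, 4 for siStag2 and 3 for the interaction. Without the libraries numbered 1, siStag1 gave 1 and siStag2 gave 1. With 1 library left out the range was 4 to 8 for *Pds5a*-/- against WT, 6 to 8 for *Pds5a*-/- against *Pds5b*-/-, 0 to 2 for siStag2 and 1 to 2 for the interaction.

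Over all genes, DESeq2 called 4 for siPds5b in WT cells, 72 for siStag1, 775 for siStag2 and 410 for the interaction. With only the conditions compared the counts were 1810 for *Pds5a*-/- against *Pds5b*-/-, 2 for siPds5b in WT cells, 524 for siPds5b in *Pds5a*-/- cells, 8 for siStag1, 99 for siStag2 and 134 for the interaction. With the block they were 3 for siPds5b in WT cells, 48 for siStag1, 677 for siStag2 and 389 for the interaction. For siPds5b in WT cells the count was 2 without the filter and 7 without the libraries numbered 1, which gave 101 for siStag1. With 1 library left out the range was 1763 to 2584 for *Pds5a*-/- against WT, 1704 to 2611 for *Pds5b*-/- against WT, 1722 to 2683 for *Pds5a*-/- against *Pds5b*-/-, 689 to 946 for siPds5b in *Pds5a*-/- cells, 4 to 14 for siStag1, 68 to 375 for siStag2 and 121 to 232 for the interaction. The share of interaction calls that were higher was 39.6%, and 50.2% scaled by library size.

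After the chromosome 8 median was taken off, *Calr* stood at −0.07 in *Pds5b*-/- against WT and 0.02 in *Pds5a*-/- against *Pds5b*-/-, and *Dnajb1* at 0.15 in the latter, all reversed in sign by that subtraction. With 3 libraries per condition and 1 clone per knockout, small differences in genes with few counts, such as *Slc7a11*, could not be resolved. Protein, translation and *Xbp1* splicing were not analysed here.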
